A study of Homo sapiens with 18 samples.

Results

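The transcripts of 10 matrix metalloproteinases (MMPs), MMP1, MMP2, MMP7, MMP8, MMP9, MMP10, MMP12, MMP14, MMP19 and MMP25, were followed through 18 RNA-seq libraries of THP-1-derived macrophages. The members were the rows whose symbol was one of these names, 10 of 60623 rows of the gene table, and each was present once. THP-1 is a human monocytic leukaemia line that becomes macrophage-like under phorbol 12-myristate 13-acetate (PMA). The lines are labelled by what they carry, S14 for Siglec-14, S5 for Siglec-5 and EV for empty vector. Both receptors bind sialic acids with nearly the same outer domains, but Siglec-5 carries inhibitory motifs, whereas Siglec-14 signals through DAP12, an activating adaptor. PMA (100 nM, 24 h) was given to all 3 lines, followed for 48 h by 50% SW620 conditioned medium (CM), from a colorectal cancer line, or by mock medium. That gave the groups S14 CM, S5 CM, EV CM, S14 mock, S5 mock and EV mock, with 3 libraries each, numbered 1 to 3. The labels did not state that the numbers marked separate cultures, so p-values measure the spread between these libraries, which may be technical. It is not stated whether a line was 1 clone or pooled cells, so an effect of the receptor and any other difference between the lines cannot be told apart.

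MMPs are zinc-dependent endopeptidases that cut extracellular matrix and many cell-surface and soluble proteins. Most are secreted as inactive zymogens held shut by a cysteine in the propeptide, and they become active when the propeptide is cleaved. Tissue inhibitors of metalloproteinases (TIMPs) bind the active enzymes. Macrophages are a main source of MMPs in inflamed tissue and in tumours. Transcription of several MMP genes, including some of the chromosome 11 cluster, is known to be driven by AP-1, the factor family that PMA activates.

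Library sizes were 14.96 to 26.05 M counted reads, and levels are given as CPM (read counts scaled by TMM-adjusted library size). SIGLEC14, the gene that the S14 label names, averaged 663 ± 143 CPM in S14 CM, 36.4 ± 6.42 in S5 CM and 20.0 ± 3.42 in EV CM (SD, n = 3 each, as for every mean below). In mock medium it averaged 779 ± 198 CPM in S14, 38.6 ± 7.76 in S5 and 17.7 ± 4.13 in EV. The label of the S5 line could not be checked in this way. SIGLEC5 stood in 2 rows of the table, and ENSG00000105501 had 0 to 11 counts in S14, 10 to 20 in S5 and 8 to 24 in EV libraries, while ENSG00000268500 had 0 to 8 in S14, 3 to 6 in S5 and 0 in EV libraries. SIGLEC5 is a close paralog of SIGLEC14 and how shared reads were counted was not stated, so these levels are uncertain, and S5 below means the libraries labelled S5. All 12 monocyte and macrophage markers were found, 9 of them above 10 CPM in every library, with a summed level of 4545 to 6067 CPM, although CD68, MRC1 and MARCO were low, at 0.191 to 5.63 CPM across group means. All 12 epithelial markers of the SW620 source were below 1 CPM in every library, 4 of them at 0 throughout. The second principal component of the 2000 most variable genes (20.77% of the variance) separated replicate 3 of every group from the other libraries. Mitochondrial mRNAs took 3.97 to 4.52% of the counts in the 6 replicate 3 libraries and 1.49 to 3.60% in the other 12. Libraries with the same number deviated together, though for numbers 1 and 2 this cannot be told apart from the shift of replicate 3. Results of a fit with the number as a replicate block stand beside those it changes.

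Of the members, 5 lie within 1 stretch of chromosome 11 (GRCh38, 102520508 to 102875034, 354.5 kb) in the order MMP7, MMP8, MMP10, MMP1, MMP12, all on the minus strand. MMP7 (ENSG00000137673) spans 102520508 to 102530753, and MMP1 (ENSG00000196611) spans 102789920 to 102798160. The others lie apart: MMP19 (ENSG00000123342) on chromosome 12 (55835433 to 55842966, minus strand), MMP14 (ENSG00000157227) on chromosome 14 (22836557 to 22849027, plus strand), MMP9 (ENSG00000100985) on chromosome 20 (46008908 to 46016561, plus strand), and MMP2 (ENSG00000087245; 55389700 to 55506691) and MMP25 (ENSG00000008516; 3046681 to 3060726) on the plus strand of chromosome 16. Promoter sequences (RefSeq, GRCh38.p14, from 250 bases before to 50 after the start) were held for 4 of the 10 members, MMP7, MMP8, MMP10 and MMP14. The 3 shown belong to the cluster gene with the widest difference between lines (MMP7), to a gene of the same stretch that was close to silent (MMP10), and to the most steadily abundant member (MMP14). Capitals mark the AP-1 motif TGANTCA and the TATA box TATAAA, searched on both strands. The MMP7 window is chr11:102530698-102530997 and the MMP10 window chr11:102780579-102780878, both on the minus strand, and the MMP14 window is chr14:22836335-22836634 on the plus strand.
MMP7: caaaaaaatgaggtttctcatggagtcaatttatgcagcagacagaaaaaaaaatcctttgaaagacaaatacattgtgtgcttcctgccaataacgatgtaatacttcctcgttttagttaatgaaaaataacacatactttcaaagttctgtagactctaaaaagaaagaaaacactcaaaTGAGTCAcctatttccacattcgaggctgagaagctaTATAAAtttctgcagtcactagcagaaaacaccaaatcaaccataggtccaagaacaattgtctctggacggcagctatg
MMP10: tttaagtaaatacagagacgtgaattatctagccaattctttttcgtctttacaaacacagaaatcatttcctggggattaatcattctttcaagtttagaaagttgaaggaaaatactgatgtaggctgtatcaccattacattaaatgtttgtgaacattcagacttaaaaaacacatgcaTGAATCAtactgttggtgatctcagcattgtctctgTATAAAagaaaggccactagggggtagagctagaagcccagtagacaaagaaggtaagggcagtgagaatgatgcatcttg
MMP14: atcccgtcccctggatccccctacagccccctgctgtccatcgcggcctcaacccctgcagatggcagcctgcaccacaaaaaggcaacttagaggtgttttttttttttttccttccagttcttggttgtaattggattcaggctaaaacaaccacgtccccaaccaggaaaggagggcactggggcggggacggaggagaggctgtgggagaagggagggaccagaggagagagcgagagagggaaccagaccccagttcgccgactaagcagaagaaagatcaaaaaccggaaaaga
MMP7 and MMP10 each held 1 AP-1 match starting at base -67 and 1 TATA box, starting at -30 in MMP7 and -31 in MMP10. The motifs did not overlap each other. Of 35116 promoters of the same length, 7.71% held the AP-1 motif and 11.5% the TATA box. The MMP14 window held neither, and the ETS motif AGGAAG, present in 33.6% of promoters, matched 2 times in MMP7 and not in MMP10 or MMP14. The MMP8 window, from the same stretch of chromosome 11, held 0 AP-1 matches and its TATA box match started at -110, so of the 3 cluster windows held, those of MMP7 and MMP10 shared both motifs at nearly the same positions.

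On the length-corrected scale (TPM, transcript abundance corrected for gene length, as deposited), MMP9 and MMP14 together made up 74.8 to 97.8% of the summed TPM of the 10 members in every library. MMP9 is gelatinase B, which cuts denatured collagen and type IV collagen, and MMP14 is the membrane-anchored MT1-MMP. MMP14 ranked above MMP9 in 9 of the 12 libraries numbered 1 or 2, and MMP9 ranked above MMP14 in all 6 numbered 3. The summed TPM of the members was 2133, 2232 and 9687 in S14 CM, 1141, 1070 and 1856 in S5 CM, and 1320, 1244 and 4630 in EV CM (replicates 1, 2 and 3). In mock medium it was 2084, 2143 and 9798 in S14, 1027, 994 and 1621 in S5, and 1381, 1320 and 3529 in EV. At each replicate number the S14 sum was the highest and the S5 sum the lowest of the 3 lines, in both media.

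**Figure D1:**
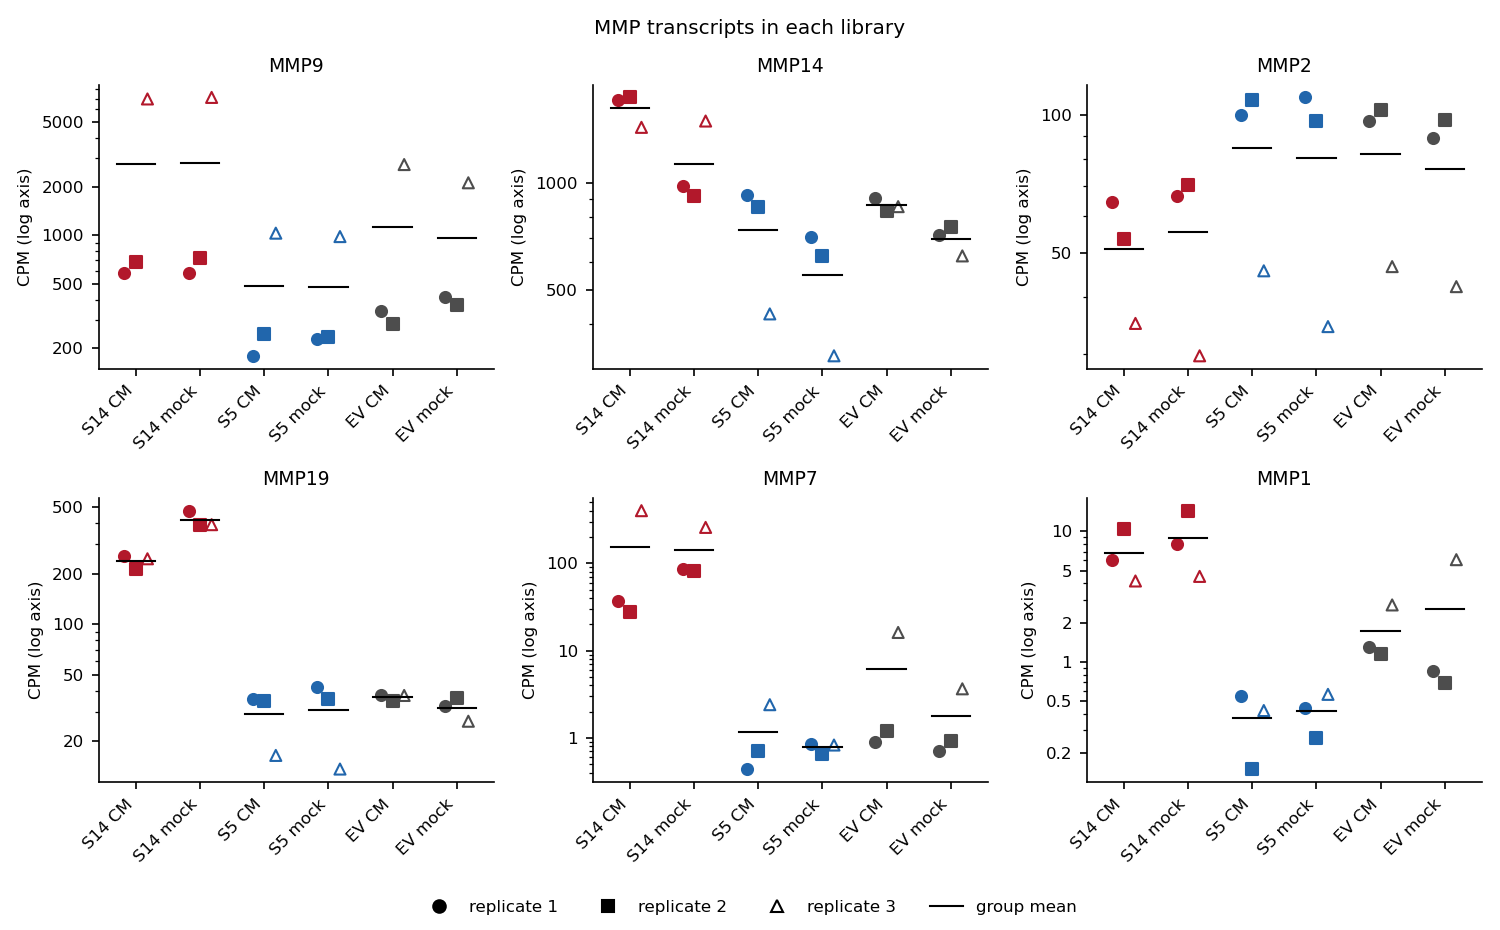
CPM (log axis) of 6 MMPs in each library, by group, with a horizontal bar at the group mean; circles, squares and open triangles are replicates 1, 2 and 3, and red, blue and grey are the S14, S5 and EV lines. MMP19 and MMP7 lay higher in all 6 S14 libraries than in any library of the other lines, while MMP9 was split within every group by the replicate 3 library.

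The S14 line differed from the other lines in 2 to 4 of the 9 members that passed the low-count filter, and every called member was higher in S14. MMP10 did not pass, and MMP12 passed on 144 counts over all libraries. Against EV in mock medium, 2 members rose, MMP7 and MMP19, where 20% of all 17851 genes tested were called, 11.1% higher and 8.96% lower (adjusted p below 0.05, edgeR quasi-likelihood, Benjamini-Hochberg over all genes). Against EV in CM the same 2 rose, where 11.1% of all genes were called, 7.44% higher and 3.7% lower. Against S5, 4 members rose in mock medium (MMP1, MMP7, MMP14 and MMP19), where 21.5% of all genes were called, 11.4% higher and 10% lower. The same 4 rose over S5 in CM, where 13.8% of all genes were called, 8.9% higher and 4.88% lower. The libraries of S14 and EV did not overlap for 3 members in mock medium (36.4% of all genes) and 4 in CM (28.8%), and those of S14 and S5 did not overlap for 6 members in mock (33.4%) and 7 in CM (28.5%). The median log2 fold change of the 9 members was 1.01 against EV in mock, 0.97 against EV in CM, 2.76 against S5 in mock and 3.03 against S5 in CM, where the medians over all genes were -0.02, -0.02, -0.05 and -0.04. In these bulk samples a change in the number of cells making a transcript and in the transcript per cell cannot be told apart.

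With the replicate block the counts were higher. Against EV in mock medium, 7 members were called, 6 higher in S14 and MMP2 lower, where 37.4% of all genes were called. In CM against EV, 6 were called, with MMP7, MMP9, MMP14 and MMP19 higher and MMP2 and MMP25 lower (23.6% of all genes). Against S5, all 9 were called in mock medium (38.5% of all genes) and 8 in CM (26.6%), with MMP2 and MMP25 lower and the others higher. Without replicate 3, at 2 libraries a group, 8 of 9 members were called in each of these 4 comparisons, where 55.6 and 54.8% of all genes were called against EV and S5 in mock medium and 43.9 and 42.5% in CM.

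**Figure D2:**
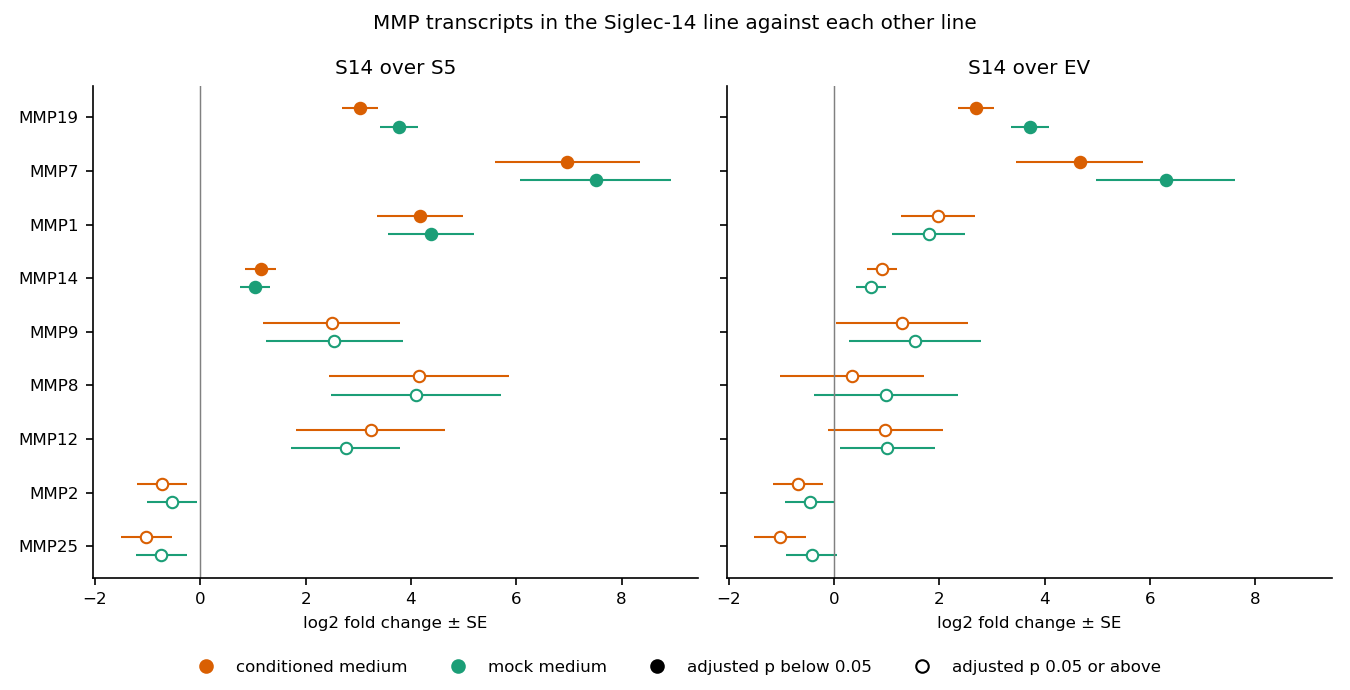
Log2 fold change ± SE of the 9 tested members in the S14 line over S5 (left) and over EV (right), in conditioned medium (orange) and mock medium (green); filled points passed an adjusted p of 0.05. MMP19 and MMP7 were filled in all 4 comparisons, MMP1 and MMP14 only over S5, and MMP2 and MMP25 lay below 0 without passing.

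MMP19, a secreted enzyme that cuts basement membrane proteins, was the member with the tightest difference between lines. In mock medium it was at 475, 392 and 392 CPM in S14, 42.3, 35.7 and 13.7 CPM in S5, and 32.5, 36.4 and 26.4 CPM in EV. In CM it was at 254, 213 and 245 CPM in S14, 35.9, 34.8 and 16.5 CPM in S5, and 37.5, 34.8 and 37.6 CPM in EV. All S14 libraries lay above all libraries of the other lines, and S5 and EV overlapped. MMP19 rose in S14 over EV by a log2 fold change of 3.72 ± 0.36 in mock medium (SE; adjusted p = 7.65e-06) and 2.69 ± 0.34 in CM (adjusted p = 0.000111). Over S5 it rose by 3.78 ± 0.36 in mock (adjusted p = 6.73e-06) and 3.03 ± 0.35 in CM (adjusted p = 4.47e-05). At matched numbers S14 was 10.8 to 14.9 times EV in mock medium and 6.11 to 6.76 times EV in CM. Exons of MMP19 share 814 bases with TMEM198B on the other strand (25.6 to 51.3 CPM across group means). By group means TMEM198B was at 6.09 to 18.1% of MMP19 in S14, and at 130.8 to 176.5% in S5 and EV. The strand setting of the counting was not stated, so part of either count could belong to its partner, and the ratios share that uncertainty.

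MMP7, or matrilysin, is a small MMP without the hemopexin domain that most members carry, and it also releases membrane-bound ligands. It was at 36.7, 27.8 and 401 CPM in S14 CM, 0.439, 0.708 and 2.40 CPM in S5 CM, and 0.907, 1.21 and 16.1 CPM in EV CM. Mock values were 87.3, 81.2 and 258 CPM in S14, 0.848, 0.655 and 0.827 CPM in S5, and 0.715, 0.928 and 3.65 CPM in EV. The lowest S14 library lay above the highest of the other lines, and in 5 of the 6 groups replicate 3 was the highest. The counts behind these values were 498 to 9520 in S14, 8 to 62 in S5 and 15 to 401 in EV.

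MMP7 rose in S14 over EV by 6.30 ± 1.32 in mock medium (log2, SE; adjusted p = 0.00346) and 4.66 ± 1.20 in CM (adjusted p = 0.0188). Over S5 it rose by 7.51 ± 1.43 in mock (adjusted p = 0.00161) and 6.97 ± 1.38 in CM (adjusted p = 0.00318). At matched numbers S14 was 22.9 to 122 times EV and 39.2 to 312 times S5. DESeq2 gave no adjusted p for MMP7 in any comparison of S14 with EV or S5, so it could not check these calls. The call over EV in CM was lost without EV CM replicate 1 (adjusted p = 0.0823), EV CM replicate 2 (0.0864) or S14 CM replicate 3 (0.130, with a log2 fold change of 2.39), and it held without EV CM replicate 3, where the fold change was 7.20. It was also lost with no filter on low counts (0.0864) and with the compared groups alone (0.123). Leaving out single replicate 3 libraries moved the other MMP7 estimates to between 4.70 and 8.07 with the calls kept, and without replicate 3 in any group the log2 fold changes over EV were 6.66 in mock and 4.89 in CM. Without replicate 1 of all groups MMP7 lost its calls over EV in mock (adjusted p = 0.0873), over EV in CM (0.218) and over S5 in CM (0.0676), and without replicate 2 it lost the same 3 (0.0837, 0.220 and 0.0745).

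Of the collagenases, which open the triple helix of fibrillar collagen, MMP1 (interstitial collagenase) was low, and higher in S14 than in S5. In mock medium, MMP1 was at 7.96, 14.4 and 4.53 CPM in S14, 0.446, 0.262 and 0.566 CPM in S5, and 0.859, 0.696 and 6.08 CPM in EV. In CM it was at 6.05, 10.4 and 4.18 CPM in S14, 0.549, 0.152 and 0.426 CPM in S5, and 1.30, 1.16 and 2.74 CPM in EV. S14 and S5 did not overlap in either medium, whereas EV mock replicate 3 reached into the S14 range. MMP1 rose over S5 by 4.38 ± 0.81 in mock (log2, SE; adjusted p = 0.00133) and 4.17 ± 0.82 in CM (adjusted p = 0.00309). Both calls were lost without replicate 1 of all groups (adjusted p = 0.0634 in mock and 0.0838 in CM) or without replicate 2 (0.0506 and 0.0852). Over EV it was 1.80 ± 0.69 in mock (adjusted p = 0.0800) and 1.98 ± 0.71 in CM (adjusted p = 0.0898). The mock value over EV passed with the replicate block (2.01, adjusted p = 0.0413), without EV mock replicate 3 (3.54, adjusted p = 0.00192) and without S14 mock replicate 3 (2.11, adjusted p = 0.0430), and DESeq2 called it over EV in mock (adjusted p = 0.0441) and CM (adjusted p = 0.0384). MMP1 was lower in replicate 3 than in replicates 1 and 2 in both S14 groups, and higher there in both EV groups.

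MMP8 (neutrophil collagenase) ranged from 0.0505 to 19.5 CPM, on 1 to 401 counts. Replicate 3 was its highest library in all 6 groups, at 6.32 to 8.98 times the mean of replicates 1 and 2 in S14, 2.27 to 4.14 times in S5 and 21.7 to 29.5 times in EV. S14 lay above S5 without overlap in both media, with log2 fold changes of 4.09 ± 1.62 in mock (SE; adjusted p = 0.0854) and 4.15 ± 1.71 in CM (adjusted p = 0.131). With the replicate block these were 4.16 (adjusted p = 0.000572) and 4.11 (adjusted p = 0.00277), and DESeq2 called both (adjusted p = 0.0306 and 0.0415). Without S14 replicate 3 of the same medium they were 2.62 in mock (adjusted p = 0.250) and 2.27 in CM (adjusted p = 0.436). Over EV, MMP8 was 0.99 ± 1.37 in mock (adjusted p = 0.659) and 0.34 ± 1.37 in CM (adjusted p = 0.925), and the block gave 1.62 in mock (adjusted p = 0.0398) and 0.78 in CM (adjusted p = 0.382). Single replicate 3 libraries set these estimates. Without S14 mock replicate 3 the mock value over EV was -0.49, and without EV mock replicate 3 it was 3.99. Without S14 CM replicate 3 the CM value was -1.54, and without EV CM replicate 3 it was 3.69. None of these 4 passed, and each of these fits kept replicate 3 in the other group. Of 7 neutrophil markers, 2 (CSF3R and ELANE) were above 10 CPM in every library and 3 (FCGR3B, LTF and CAMP) below 1 CPM in every library. Their summed level was 101 to 303 CPM in S14 CM, 374 to 558 in S5 CM and 189 to 347 in EV CM. In mock medium that sum was 74.6 to 172 CPM in S14, 310 to 550 in S5 and 203 to 288 in EV, and its part in the MMP8 values was not tested.

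MMP14 (MT1-MMP), which sits in the membrane and activates the MMP2 zymogen, was abundant in every library. In CM it was at 1712, 1738 and 1432 CPM in S14, 924, 856 and 428 CPM in S5, and 906, 836 and 857 CPM in EV. Mock values were 981, 921 and 1492 CPM in S14, 703, 623 and 327 CPM in S5, and 713, 754 and 623 CPM in EV. The S14 libraries lay above those of both other lines in each medium. MMP14 rose over S5 by 1.14 ± 0.29 in CM (log2, SE; adjusted p = 0.0152) and 1.04 ± 0.29 in mock (adjusted p = 0.0184). Over EV it was 0.91 ± 0.29 in CM (adjusted p = 0.0556) and 0.70 ± 0.29 in mock (adjusted p = 0.102), and with the replicate block 0.90 (adjusted p = 0.0241) and 0.74 (adjusted p = 0.0411). DESeq2 called it over EV in CM (adjusted p = 0.0263). The calls over S5 were lost without S5 CM replicate 3 (0.89, adjusted p = 0.0554), S5 mock replicate 3 (0.80, adjusted p = 0.0582) or S14 mock replicate 3 (0.79, adjusted p = 0.0607). They were also lost with the compared groups alone (adjusted p = 0.104 in mock and 0.0689 in CM), without replicate 1 of all groups (0.106 and 0.153) and without replicate 2 (0.147 and 0.216). Without replicate 3 in any group the values over S5 were 0.53 in mock (adjusted p = 2.9e-05) and 0.92 in CM (adjusted p = 7.46e-09), and that over EV in mock was 0.37 (adjusted p = 0.00129). In replicates 1 and 2 of mock medium S14 was 1.40 and 1.48 times S5, and in replicate 3 it was 4.57 times.

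MMP25 is MT6-MMP, a glycolipid-anchored enzyme known from leukocytes. It ranged from 0.827 to 5.75 CPM on 17 to 133 counts and was lowest in replicate 3 of all 6 groups. The log2 fold change in S14 was -1.02 ± 0.49 against EV in CM (SE; adjusted p = 0.219) and -1.02 ± 0.49 against S5 in CM (adjusted p = 0.199). With the replicate block it fell in CM against EV (-1.01, adjusted p = 0.0359), in CM against S5 (-1.06, adjusted p = 0.0262) and in mock medium against S5 (-0.93, adjusted p = 0.0324). Its exons share 1454 bases with MMP25-AS1 on the other strand, which was counted higher (12.4 to 24.3 CPM across group means), so part of either count could belong to its partner.

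Of the gelatinases, MMP9 had the largest levels and the widest spread. In CM it was at 588, 681 and 6964 CPM in S14, 180, 245 and 1032 CPM in S5, and 340, 285 and 2738 CPM in EV. In mock medium it was at 587, 729 and 7118 CPM in S14, 228, 234 and 983 CPM in S5, and 418, 371 and 2113 CPM in EV. Replicate 3 was the highest library of every group, and the groups overlapped. At each replicate number, however, S14 was the highest and S5 the lowest line in both media, S14 being 1.40 to 3.37 times EV and 2.57 to 7.24 times S5.

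The fit without the number did not call MMP9 in S14 over EV (1.54 ± 1.26 in mock, adjusted p = 0.423; 1.29 ± 1.25 in CM, adjusted p = 0.603; log2, SE) or over S5 (2.55 ± 1.30 in mock, adjusted p = 0.182; 2.50 ± 1.30 in CM, adjusted p = 0.241). With the replicate block MMP9 rose over EV by 1.09 in mock (adjusted p = 0.00612) and 1.15 in CM (adjusted p = 0.00652). Over S5 the block gave 1.95 in mock (adjusted p = 9.7e-05) and 1.98 in CM (adjusted p = 0.000131). Without replicate 3 in any group the estimates were 0.73 and 0.99 over EV in mock and CM (adjusted p = 0.00014 and 8.81e-06). Leaving out S14 mock replicate 3 alone turned the mock estimate over EV to -0.56 (adjusted p = 0.778), and leaving out S14 CM replicate 3 alone turned that in CM to -0.82 (adjusted p = 0.734). Without EV mock replicate 3 alone the mock estimate was 2.85 (adjusted p = 0.215), and without EV CM replicate 3 alone that in CM was 3.14 (adjusted p = 0.215). Each of these fits kept replicate 3 in the other group, so the groups compared did not hold the same numbers.

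MMP2 (gelatinase A), which MMP14 and TIMP2 activate at the cell surface, ran the other way. In CM it was at 64.6, 53.5 and 35.0 CPM in S14, 100, 108 and 45.6 CPM in S5, and 97.3, 102 and 46.6 CPM in EV. Its mock values were 66.6, 70.2 and 29.7 CPM in S14, 109, 97.3 and 34.4 CPM in S5, and 89.2, 97.4 and 42.1 CPM in EV. S14 was the lowest line at every number in both media, at 0.522 to 0.751 times EV and 0.497 to 0.863 times S5, and replicate 3 was the lowest library of every group. The log2 fold changes were -0.69 ± 0.48 in CM and -0.46 ± 0.48 in mock over EV (SE; adjusted p = 0.437 and 0.540). With the replicate block MMP2 fell by 0.63 in CM (adjusted p = 0.00374) and by 0.47 in mock (adjusted p = 0.0155) against EV, and by 0.66 and 0.48 against S5 (adjusted p = 0.00245 and 0.0124). MMP2-AS1, an opposite-strand RNA whose exons share 0 bases with those of MMP2, was at 9.37, 10.8 and 5.65 CPM in S14 CM and 3.40, 3.34 and 1.78 CPM in S5 CM. It rose by 1.60 ± 0.51 over S5 in CM (log2, SE; adjusted p = 0.0491) and was 1.16 ± 0.50 over EV in CM (adjusted p = 0.170). In mock medium MMP2-AS1 averaged 3.76 ± 3.38 CPM in S14, 1.92 ± 0.306 CPM in S5 and 3.63 ± 1.58 CPM in EV, with log2 fold changes in S14 of 0.97 ± 0.52 over S5 (adjusted p = 0.201) and 0.04 ± 0.50 over EV (adjusted p = 0.963). At matched numbers in mock it was 0.721, 1.01 and 4.87 times S5 and 0.504, 0.858 and 1.41 times EV.

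MMP12 (macrophage elastase) and MMP10 (stromelysin 2) were close to undetected in these cells. MMP12 had 18, 20 and 24 counts in S14 mock and 4, 5 and 11 in S14 CM, 0 to 6 counts in the S5 libraries and 0 to 9 in the EV libraries other than EV mock replicate 3, which had 35. Its level reached 1.33 CPM at most. MMP12 was 2.76 ± 1.03 higher in S14 than in S5 in mock medium (log2, SE; adjusted p = 0.0701), a difference that passed with the replicate block (2.99, adjusted p = 0.00776). Over EV in mock it was 1.01 ± 0.90 (adjusted p = 0.469), and 3.78 without EV mock replicate 3 (adjusted p = 0.0224). MMP10 had 8 counts over all 18 libraries, 5 of them in S14 mock replicate 3, and 0 in 14 libraries. A count of 0 allows up to 0.114 to 0.221 CPM, depending on the library, for counting error only. MMP7 and MMP10, whose promoter windows are printed above, thus stood at 27.8 to 401 CPM and at 0 to 0.243 CPM in the 6 S14 libraries.

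Between S5 and EV, 0 of 9 members were called in either medium, as were 0% of all genes. At an unadjusted p below 0.05 there was 1 member in mock medium (MMP1, log2 fold change -2.58, 95% interval -4.25 to -0.91) and 2 in CM (MMP1, -2.20, and MMP8, -3.81). DESeq2 called 0 members in each medium, where 0.0116% of all genes were called in mock and 0.0174% in CM. It gave no adjusted p for MMP7 and MMP9. Without EV mock replicate 3 the MMP1 value in mock was -0.87, and without EV CM replicate 3 the MMP8 value in CM was -0.47. MMP1 did not overlap between these lines in either medium, where 8.31% of genes did not overlap in mock and 9.08% in CM, and it was the only member that did not. For MMP19 the interval of the difference was -0.74 to 0.63 in mock and -1.03 to 0.35 in CM, and for MMP14 -0.95 to 0.27 and -0.85 to 0.38, so differences beyond these bounds lie outside the intervals. For MMP9 the intervals were far wider (-3.65 to 1.63 in mock, -3.86 to 1.44 in CM). Without replicate 3, MMP9 was the 1 member called in each medium, with a log2 fold change of -0.78 in mock (adjusted p = 0.00471) and -0.56 in CM (adjusted p = 0.0363), where 1.97 and 2.18% of all genes were called.

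The replicate 3 libraries split the members by direction. MMP9 was 10.8 to 11.0 times the mean of replicates 1 and 2 in the S14 groups, 4.25 to 4.85 times in S5 and 5.35 to 8.77 times in EV. MMP7 was 3.06 to 12.4 times in S14 and 4.44 to 15.2 times in EV, and 1.10 to 4.18 times in S5. MMP2 was 0.434 to 0.592 times in S14, 0.333 to 0.438 times in S5 and 0.451 to 0.466 times in EV. MMP9 and MMP8 were thus raised, and MMP2 and MMP25 lowered, in all 6 groups. MMP14 and MMP19 were at 0.481 to 0.493 and 0.350 to 0.467 times in S5 but between 0.765 and 1.57 times in the other lines. Mitochondrial mRNA shares were also highest in the replicate 3 libraries (3.97 to 4.52%, against 1.49 to 3.60% in the others), and their part in these differences was not tested.

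**Figure D3:**
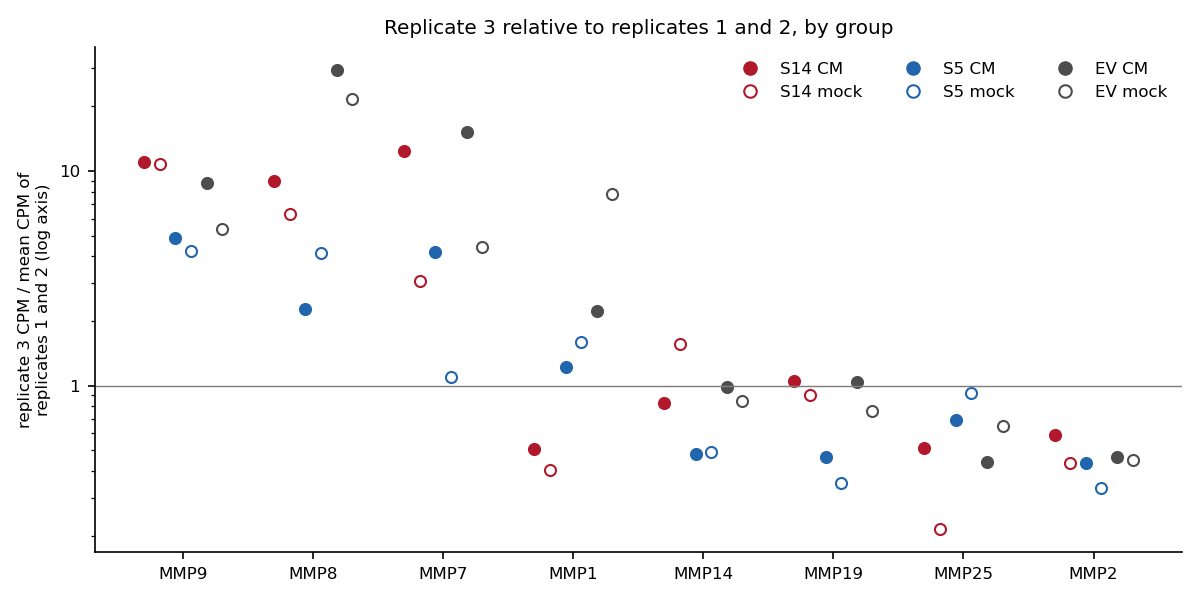
CPM of replicate 3 divided by the mean CPM of replicates 1 and 2 (log axis) for 8 members, in each group (filled, conditioned medium; open, mock medium; red S14, blue S5, grey EV). MMP9 and MMP8 lay above 1 in all 6 groups and MMP25 and MMP2 below 1 in all 6, while MMP1 lay below 1 in S14 and above 1 in the other lines.

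Conditioned medium changed no member past the threshold in any line. In S14, 0 of 9 members were called where 0.0504% of all genes were (0.0448% higher), and 1 had an unadjusted p below 0.05 (MMP19). In S5 and in EV, 0 of 9 were called where 0.0056% of genes were, with 0 members at an unadjusted p below 0.05. The replicate block also called 0 members in each line, where 11% of all genes were called in S14, 0.0056% in S5 and 0.0112% in EV. DESeq2 called 0 members as well, where 5.78, 0.00582 and 0.00291% of all genes were called. It gave no adjusted p for MMP7 and MMP9 in any line or for MMP12 in S14, so it could not call these. The libraries of CM and mock medium did not overlap for 2 members in S14 (MMP12 and MMP19; 15.4% of all genes), 0 in S5 (6.27%) and 1 in EV (MMP14; 8.59%).

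MMP19 in S14 was at 0.535, 0.543 and 0.626 times its mock level in CM (replicates 1, 2 and 3), with no overlap. Its log2 fold change was -0.82 ± 0.32 (SE; 95% interval -1.51 to -0.14; adjusted p = 0.206), -0.81 with the replicate block (adjusted p = 0.0646) and -0.95 without replicate 3 (adjusted p = 4.45e-08). The same ratios were 0.848, 0.973 and 1.21 in S5 and 1.15, 0.958 and 1.42 in EV. The difference in response was -1.03 ± 0.46 between S14 and EV (unadjusted p = 0.0386, adjusted p = 1) and -0.75 ± 0.46 between S14 and S5 (-1.71 to 0.22, adjusted p = 1). Without replicate 3 both differences passed (adjusted p = 3.35e-05 against EV and 0.000539 against S5), where 24.3 and 21.9% of all genes did.

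MMP14 in CM was at 1.74, 1.89 and 0.960 times mock in S14, 1.31, 1.37 and 1.31 times in S5, and 1.27, 1.11 and 1.38 times in EV. It was thus higher in CM at 8 of the 9 matched numbers. The log2 fold changes were 0.52 (95% interval -0.09 to 1.14) in S14, 0.42 (-0.19 to 1.03) in S5 and 0.32 (-0.30 to 0.93) in EV, none of which passed (adjusted p = 0.387, 1 and 1). Without replicate 3 they were 0.80 in S14 (adjusted p = 8.49e-08), 0.41 in S5 (adjusted p = 0.00715) and 0.23 in EV (adjusted p = 0.221).

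MMP7 in CM was at 0.421, 0.342 and 1.56 times mock in S14, with replicate 3 opposite to the others, and at 1.27, 1.31 and 4.43 times in EV. Its fitted value in S14 was 0.13 (95% interval -2.05 to 2.30), and without replicate 3 it fell by 1.45 on the log2 scale (adjusted p = 4.4e-10). MMP9 and MMP2 had estimates near 0 with wide intervals in S14: -0.03 (-2.65 to 2.58) for MMP9 and -0.12 (-1.13 to 0.89) for MMP2. At matched numbers MMP9 was at 1.00, 0.934 and 0.978 times mock in S14, 0.790, 1.05 and 1.05 times in S5, and 0.812, 0.767 and 1.30 times in EV. Without replicate 3, 6 members were called in S14 (MMP14 higher; MMP2, MMP7, MMP8, MMP12 and MMP19 lower) where 45.2% of all genes were called, 1 in S5 (MMP14 higher; 7.06%) and 0 in EV (3.17%).

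**Figure D4:**
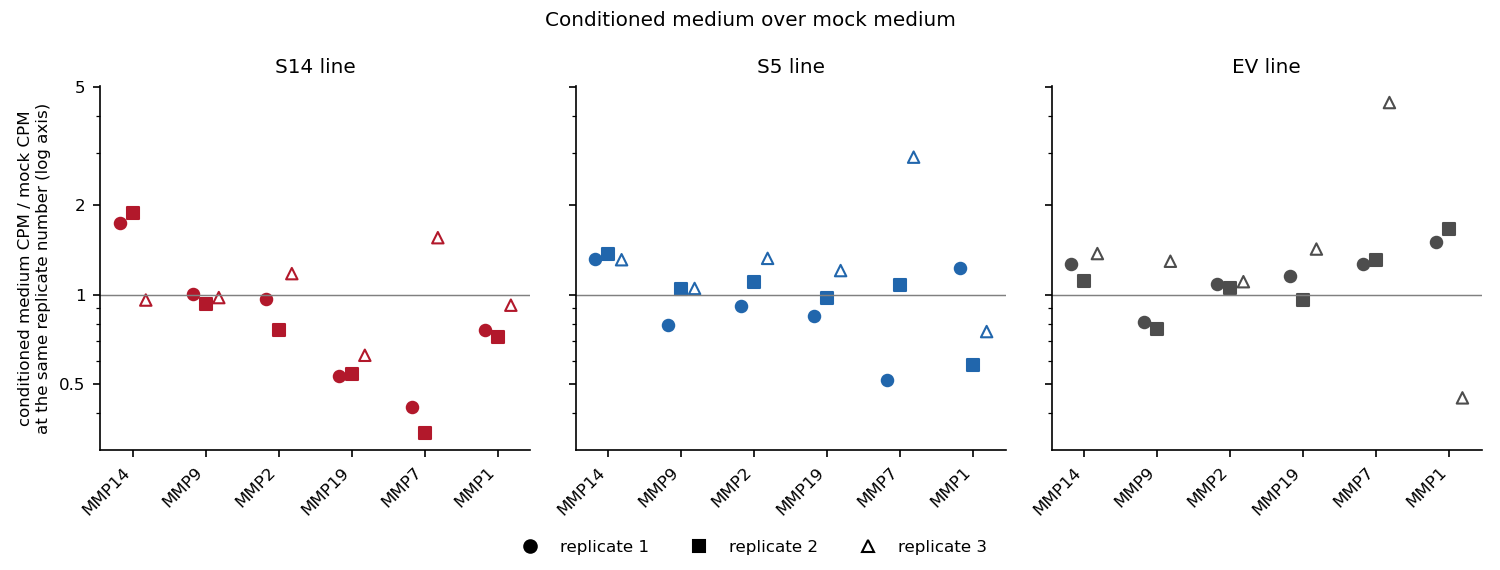
CPM in conditioned medium divided by CPM in mock medium at the same replicate number (log axis) for 6 members in the S14, S5 and EV lines; markers are replicates 1, 2 and 3. MMP19 lay below 1 at all 3 numbers in S14 only, MMP14 lay above 1 at 8 of 9 numbers, and replicate 3 of MMP7 stood above the other 2 in each line.

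Genes that act on or around MMPs were read from 7 lists chosen for the MMP pathway. Over all genes, 11.1% were called higher and 8.96% lower in S14 over EV in mock medium, and 7.44% higher and 3.7% lower in CM. Under the block these shares were 18.7% and 18.6% in mock and 12.9% and 10.6% in CM. Among 7 MMP inhibitors, 3 rose and 1 fell in S14 over EV in mock medium (20% of all genes called), and 3 rose and 0 fell in CM (11.1% of all genes), with a median log2 fold change of 1.14 and 1.19. With the block 4 were higher, TIMP1 being added, and 2 lower, A2M being added, in mock, and 3 were higher and 1 lower (RECK) in CM. TIMP4 averaged 19.5 ± 7.63 CPM in S14 CM and 0.199 ± 0.155 CPM in EV CM (log2 fold change 6.60 ± 0.69, SE; adjusted p = 2.17e-05). TIMP3, a matrix-bound inhibitor, averaged 403 ± 453 CPM in S14 CM and 26.3 ± 2.59 CPM in EV CM (3.94 ± 0.60, adjusted p = 0.000525), and 477 ± 240 and 28.4 ± 3.05 CPM in S14 mock and EV mock (4.07 ± 0.61, adjusted p = 0.000282). TFPI2, a secreted inhibitor of serine proteases with reported activity against MMPs, also rose (4.63 ± 1.35 in mock, adjusted p = 0.0240), a call lost without S14 mock replicate 3 (2.85, adjusted p = 0.101) or without EV mock replicate 1 or 2 (adjusted p = 0.0996 and 0.0937). Its call in CM (4.62 ± 1.38, adjusted p = 0.0408) was lost without S14 CM replicate 3 (2.24, adjusted p = 0.258), EV CM replicate 1 (0.156) or EV CM replicate 2 (0.154), with no low-count filter (0.153) and with the compared groups alone (0.123). RECK, a membrane-anchored MMP inhibitor, fell in mock medium, averaging 23.2 ± 5.23 CPM in S14 and 72.8 ± 15.4 CPM in EV (-1.65 ± 0.40, adjusted p = 0.00845).

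Of 13 genes of MMP activation (plasminogen activation and proprotein convertases), 9 were tested, and 5 rose and 1 fell in S14 over EV in each medium, where 20% of all genes were called in mock and 11.1% in CM. The block gave the same counts in mock, and 5 higher and 2 lower in CM, with SERPINB2 and PCSK7 lower. PLAUR, the urokinase receptor, averaged 580 ± 20.2 CPM in S14 CM and 180 ± 52.7 CPM in EV CM (log2 fold change 1.69 ± 0.28, SE; adjusted p = 0.00104), a call lost without replicate 1 (0.130) or replicate 2 (0.111) of all groups. SERPINE2, a protease inhibitor and thus of opposite action to the list's name, rose as well (3.34 ± 0.44 in CM, adjusted p = 0.000166). FURIN, the convertase that cleaves the MMP14 propeptide, averaged 191 ± 18.6 CPM in S14 CM and 125 ± 1.24 CPM in EV CM (0.61 ± 0.12, adjusted p = 0.00423), also lost without replicate 1 (0.191) or 2 (0.195) of all groups. Of 10 genes that dock or take up MMPs, 9 were tested, and 7 rose in mock medium (11.1% of all genes) and 5 in CM (7.44% of all genes) with 0 falling. With the block 8 were higher and 1 (LRP1) lower in mock, and 5 higher and 0 lower in CM. CD44, the hyaluronan receptor that holds MMP9 and MMP14 at the surface, averaged 646 ± 63.2 CPM in S14 CM and 217 ± 67.8 CPM in EV CM (1.57 ± 0.18, adjusted p = 6.05e-05). ITGB3, an integrin chain, averaged 22.8 ± 3.69 CPM in S14 CM and 0.712 ± 0.412 CPM in EV CM (4.98 ± 0.51, adjusted p = 1.66e-05).

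Among 12 AP-1 and ETS transcription factors, 3 rose (JUN, JUNB and ATF3) and 2 fell (FOS and ETV5) in S14 over EV in mock medium (20% of all genes called), and 2 rose and 1 fell in CM (11.1% of all genes). The block called 5 higher and 3 lower in mock (37.4% of all genes called), and 6 higher and 3 lower in CM (23.6%). JUNB averaged 147 ± 20.6 CPM in S14 mock and 51.1 ± 4.44 CPM in EV mock (log2 fold change 1.52 ± 0.19, SE; adjusted p = 5.8e-05). ATF3, a stress-induced partner of JUN proteins, averaged 749 ± 333 CPM in S14 mock and 45.7 ± 15.9 CPM in EV mock (4.03 ± 0.69, adjusted p = 0.000847). Of 17 matrix substrates, 16 were tested, and 5 rose and 2 fell in mock medium (20% of all genes called), and 4 rose and 1 fell in CM (11.1% of all genes). With the block 5 were higher and 3 lower in mock, and 6 higher and 1 lower in CM. COL6A1 and COL6A2, chains of type VI collagen, rose in mock medium by 1.65 ± 0.24 (adjusted p = 0.000221) and 1.87 ± 0.24 (adjusted p = 7.32e-05). NID1, a basement membrane linker, fell, averaging 19.3 ± 5.95 CPM in S14 mock and 106 ± 4.06 CPM in EV mock (-2.45 ± 0.26, adjusted p = 1.77e-05).

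Of 15 ADAM and ADAMTS relatives, 13 were tested, and 0 rose and 1 (ADAMTS4, an aggrecanase) fell in S14 over EV in each medium, where 20% of all genes were called in mock and 11.1% in CM. Blocking by replicate gave 1 higher and 4 lower in mock (37.4% of all genes called), and 1 higher and 1 lower in CM (23.6%). The ADAMTS4 call in CM (-1.80 ± 0.55, adjusted p = 0.0469) was lost without any 1 of EV CM replicates 1 and 2 and S14 CM replicates 1, 2 and 3 (adjusted p = 0.0789, 0.277, 0.0648, 0.157 and 0.119), with no filter (0.0562) and with the groups alone (0.136). Of the 13 other MMP family genes, 5 passed the filter, and 1 (MMP16) fell in mock medium, where 20% of all genes were called, and 0 were called in CM, where 11.1% were. The block called 1 higher and 2 lower in mock (37.4% of all genes) and 1 higher in CM (23.6%). MMP17, a glycolipid-anchored member, averaged 12.0 ± 2.50 CPM in S14 CM and 11.8 ± 3.18 CPM in EV CM (0.03 ± 0.24, adjusted p = 0.962). Over S5 in mock medium 1 of the 5 rose and 1 (MMP17) fell, where 21.5% of all genes were called, and 0 were called in CM (13.8%). With the block MMP17 was also lower over S5 in mock (38.5%). Its call over S5 was lost without any single S14 or S5 mock library (adjusted p 0.0784 to 0.148), with no filter (-0.73, 0.0819) and with the compared groups alone (0.0627). Of the 26 list genes named by smallest p in mock medium, the 21 called there were set by that choice. Without replicate 1 of all groups 12 of these 21 calls were lost, and without replicate 2 there were 9 lost (adjusted p 0.0534 to 0.207), RECK, TFPI2, ATF3, PLAUR, FURIN and SERPINE2 among them both times. Of the same 26 genes 19 were called in CM, and 14 of these calls were lost without replicate 1 and 13 without replicate 2, whereas 0 were lost in either medium without replicate 3. In CM the calls of TIMP3, TIMP4, CD44, ITGB3 and SERPINE2 were kept both times.

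**Figure D5:**
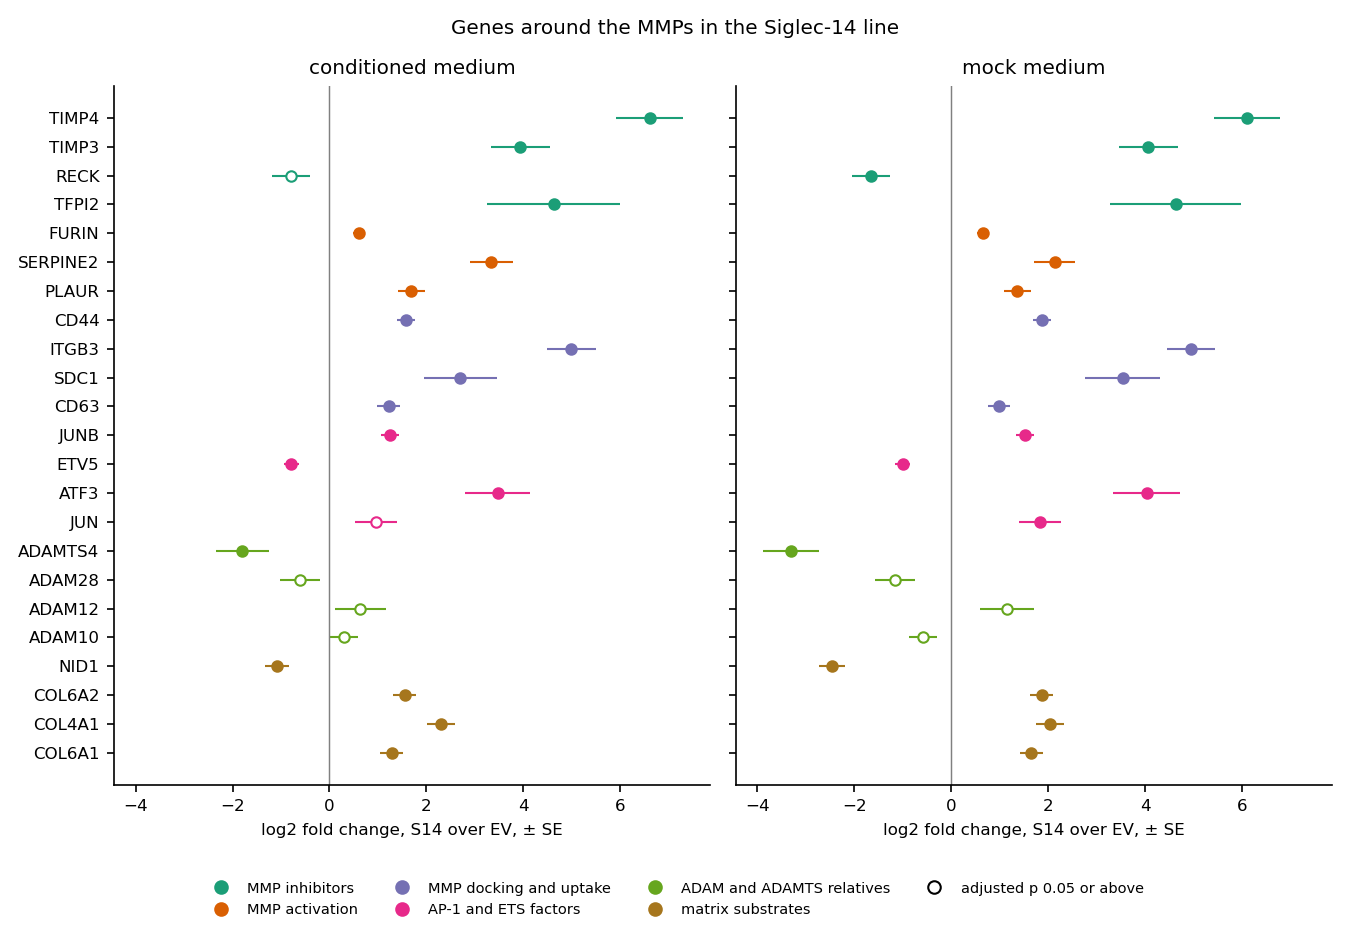
Log2 fold change ± SE in the S14 line over EV, in conditioned medium (left) and mock medium (right), for genes named by rule from 6 of the lists, coloured by list; open points did not pass an adjusted p of 0.05. TIMP4, TIMP3, TFPI2 and ITGB3 lay beyond 3.9 in both media, whereas RECK, ETV5, ADAMTS4 and NID1 lay below 0.

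Across the 18 libraries, which share lines, media and replicate numbers, several pairs of members had correlated levels, and no grouping of members was run. MMP9 and MMP8 had a Pearson r of 0.90 on log2 CPM, MMP9 and MMP2 one of -0.91, and MMP19 and MMP7 one of 0.88. MMP7 was also at 0.655 to 0.82 with MMP1, MMP8, MMP9, MMP12 and MMP14, and at -0.63 with MMP2 and -0.80 with MMP25. These are descriptions of libraries that cluster by line and by number. Of 10220 genes compared, those most like MMP19 were PAX8-AS1 (r = 0.99), RUSC2 (0.99) and DNAJB5 (0.99), and those most like MMP7 were TMEM132A (0.99), MRAS (0.98) and TNFRSF12A (0.98). The genes most like MMP9 were CD82 (0.98), SOAT1 (0.96) and CCL2 (0.96), those most like MMP14 were FLRT2 (0.97), VASH1 (0.96) and SLC31A2 (0.96), and those most like MMP2 were IQSEC2, RGL2 and LRRC37A3 (all 0.96).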

How the data were processed

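RNA was extracted with NucleoZol and made into TruSeq Stranded mRNA libraries, as the labels' protocols state. Reads were aligned to GRCh38 with HISAT2, per the submitters' processing notes; program versions, annotation, counting and strand setting: not given in the sources used here. The authors deposited 1 table with a raw read count per gene and library and a TPM value beside it. From the deposited counts, CPM was computed with TMM-scaled library sizes (edgeR 4.0.16, R 4.3.3), and TPM was used for levels only, never in a test.

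All 18 libraries entered 1 quasi-likelihood fit with 6 groups, after edgeR's filterByExpr (17851 genes kept), giving 12 comparisons, each adjusted by Benjamini-Hochberg over all genes, with calls at 0.05. SE is the absolute log2 fold change over the square root of F. Same-numbered libraries deviated together in all 45 pairs (r of deviations from group means 0.155 to 0.794). The 90 pairs of different number had r of -0.676 to 0.51, which overlaps that range. By number, r was 0.195 to 0.586 for number 1, 0.155 to 0.504 for 2 and 0.384 to 0.794 for 3. Deviations cancel out within a group, so replicate 3 libraries that stand apart push replicates 1 and 2 the same way. The r values therefore cannot show a pairing of numbers 1 and 2. The labels state no pairing, so the replicate block treats the numbers as paired from these data alone. Alternatives were the block, 2 other scalings, no filter, DESeq2 1.42.0, the compared groups alone, leaving out libraries and, for group levels, TPM in place of CPM. Gene positions and overlaps came from GENCODE 29 (58516 of 60623 IDs matched). Members named in full reached 10 CPM in a group or were called; up to 4 genes of each list were named by smallest p in S14 over EV in mock medium, at 1 CPM or more in the higher group. MMP16, FOS, single markers and the list genes given for the block (TIMP1, A2M, SERPINB2, PCSK7 and LRP1) were named after their values were seen, and 1 list gene that the rule names is not reported here. The members and lists were chosen with earlier results of these data known. Intervals and floors cover counting error only where they come from counts of single libraries.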

Additional observations from a re-analysis of the deposited data

How the results depend on the processing

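Leaving out libraries, 1 library or 1 number at a time, gave 1 to 8 called members for S14 over EV in mock (1.82 to 55.6% of all genes) and in CM (0.855 to 43.9%). For S14 over S5 it gave 2 to 8 in mock (3.09 to 54.8%) and 1 to 8 in CM (1.81 to 42.5%). For S5 over EV it gave 0 to 1 in each medium (0 to 1.97% in mock, 0 to 2.18% in CM). CM over mock had 0 to 6 in S14 (0 to 45.2%), 0 to 1 in S5 (0 to 7.06%) and 0 to 0 in EV (0 to 3.17%). The differences in response had 0 to 3 for S14 from EV (0 to 24.3%), 0 to 2 for S14 from S5 (0 to 21.9%) and 0 to 0 for S5 from EV (0%). The replicate block gave 7 called members for S14 over EV in mock (37.4% of all genes), 6 in CM (23.6%), 9 for S14 over S5 in mock (38.5%) and 8 in CM (26.6%). It called 0 members in the other comparisons, where 11% of all genes were called for CM over mock in S14 and at most 0.0168% elsewhere. Without the low-count filter, S14 over EV in CM had 1 call (4.49% of all genes), as MMP7 was lost (adjusted p = 0.0864). MMP7 in CM over mock in S14 was at -1.45 without replicate 3, inside the 95% interval with all libraries (0.13, -2.05 to 2.30). Leaving out 1 library at a time, it lay between -2.14 and 0.89. Of the 12 member calls, all 12 were kept under both other scalings and 9 with the compared groups alone, where MMP14 over S5 was lost in mock and CM (adjusted p = 0.104 and 0.0689) and MMP7 over EV in CM (0.123). Leaving out replicate 1 or replicate 2 of all groups kept 5 calls each; each time MMP7 over EV was lost in mock (adjusted p = 0.0873 and 0.0837) and CM (0.218 and 0.220), MMP7 over S5 in CM (0.0676 and 0.0745), and MMP1 and MMP14 over S5 in both media (MMP14 0.106 and 0.147 in mock, 0.153 and 0.216 in CM). Leaving out replicate 3 kept all 12. DESeq2 kept the 8 calls for which it gave an adjusted p, which it did not give for MMP7 and MMP9, and gained 5: MMP1 over EV in both media, MMP14 over EV in CM, and MMP8 over S5 in both media. The compared groups alone gained 3: MMP12 over S5 in mock (0.0250), and MMP1 (0.0477) and MMP14 (0.00796) over EV in CM. Upper-quartile scaling moved the median of all genes for S14 over EV in mock from -0.02 to -0.12 and the share of higher calls to 44.3%, against 55.3%; for S14 over S5 it moved that share to 43% in mock and 55.5% in CM, against 53.2% and 64.6%. The cause of these shifts was not tested. With 3 libraries a group, MMP10 and MMP12, at 8 and 144 counts in all, had too few for small differences to be detected.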
